A study of Arabidopsis thaliana with 30 samples.

Results

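The flavonoid and anthocyanin pathway was followed through 35 Arabidopsis genes out of 37686 genes in the deposited tables. They were taken by their identifiers, without a cut on any measured value, but were chosen with earlier results of these data known. They comprised 4 entry enzymes of phenylpropanoid metabolism, 5 early flavonoid enzymes, 3 late enzymes, 6 enzymes that decorate the pigments, the carrier GSTF12 (also known as TT19), and 16 regulators. Of these, 33 reached a level of at least 1 TPM in at least 2 libraries and were tested; the other two, BAN and MYB114, are given by their levels. Levels are in TPM, a length-corrected measure scaled to the same total in each library.

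The plants were wild-type Col-0 seedlings grown 12 d at 22 °C on plates of 1/2 MS that held sucrose at 1%, in days of 16 h of light and 8 h of dark. Blades of the first rosette leaves were detached and laid on B5 medium lacking sucrose, in constant light at 22 °C, a system in which adventitious roots form beside the cut. The tissue next to the wound was sampled at detachment (T0) and 7 times later, from 6 h, 12 h and 24 h to each day between 2 d and 5 d, on medium alone (mock) or with NPA, a polar auxin transport inhibitor whose dose the labels do not give. This gave 15 groups of 2 libraries: T0, 7 of mock and 7 of NPA. All groups shared the genotype, and no group remained attached to the plant, so detachment cannot be told apart from the change of light regime, of medium and of age. The labels do not say whether the libraries of a group are from different plants or cultures; p-values then cover only the variation among these samples, which may be technical.

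Flavonoids are built from phenylalanine. The entry enzymes turn it into an activated phenolic acid, which also feeds lignin, and the early enzymes turn this into dihydroflavonols. There the path divides: flavonol synthase makes colourless flavonols, while the late enzymes make the red and purple anthocyanins, which are then glycosylated, acylated and carried into the vacuole. In Arabidopsis the late genes are switched on by a complex of a MYB, a bHLH and the WD40 protein TTG1. The flavonol branch is served by a separate trio of MYB proteins. In leaves, anthocyanins are known to accumulate under strong light, high sugar, nitrogen shortage and wounding.

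The stretches of 300 bases before the annotated starts of 4 enzyme genes are shown because these genes stand on either side of that branch point and followed different time courses below. CHS is the common entry to flavonoids, FLS1 makes flavonols, and DFR and LDOX make anthocyanidins. The sequences are from the RefSeq annotation of TAIR10.1, read 5′ to 3′ on the strand of the gene, and end at the base before the gene start: CHS at chr5:4488176-4488475 (plus strand), FLS1 at chr5:2803533-2803832 (plus strand), DFR at chr5:17166033-17166332 (minus strand) and LDOX at chr4:12006210-12006509 (minus strand). Capitals mark the G-box, CACGTG, a letter pattern that bHLH and bZIP proteins are known to bind.
CHS: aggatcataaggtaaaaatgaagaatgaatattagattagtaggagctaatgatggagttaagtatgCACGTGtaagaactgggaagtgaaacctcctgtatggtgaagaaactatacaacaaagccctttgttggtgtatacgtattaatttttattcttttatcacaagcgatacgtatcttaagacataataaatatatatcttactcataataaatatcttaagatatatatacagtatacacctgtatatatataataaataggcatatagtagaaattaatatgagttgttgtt
FLS1: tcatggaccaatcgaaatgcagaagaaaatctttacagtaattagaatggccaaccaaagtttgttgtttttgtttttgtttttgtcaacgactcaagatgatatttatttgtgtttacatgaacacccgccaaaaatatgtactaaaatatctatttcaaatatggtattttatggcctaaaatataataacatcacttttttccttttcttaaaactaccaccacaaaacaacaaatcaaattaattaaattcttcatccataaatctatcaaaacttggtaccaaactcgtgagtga
DFR: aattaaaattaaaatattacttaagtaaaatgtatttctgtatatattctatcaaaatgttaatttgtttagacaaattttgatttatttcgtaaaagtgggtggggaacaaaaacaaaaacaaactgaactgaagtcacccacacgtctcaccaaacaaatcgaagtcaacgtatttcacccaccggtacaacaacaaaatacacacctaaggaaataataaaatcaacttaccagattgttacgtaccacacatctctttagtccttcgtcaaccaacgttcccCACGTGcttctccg
LDOX: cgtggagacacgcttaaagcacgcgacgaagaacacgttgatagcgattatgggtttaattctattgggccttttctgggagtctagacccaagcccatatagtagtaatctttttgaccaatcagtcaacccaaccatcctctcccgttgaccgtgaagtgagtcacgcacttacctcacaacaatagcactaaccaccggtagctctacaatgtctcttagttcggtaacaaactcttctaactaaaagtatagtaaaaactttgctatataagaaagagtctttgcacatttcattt
The G-box began 233 bases before the start of CHS and 14 bases before that of DFR, and its letters were not in the windows of FLS1 and LDOX. Searched on both strands, it was in 9 of the 35 member windows (25.7%) and in 7.09% of 27443 windows of the same length before all nuclear protein-coding genes. The other members that held it were F3H, UGT79B1, SCPL10, PAP2, MYB114, MYB12 and BAN. The AC elements I (ACCTACC), II (ACCAACC) and III (ACCTAAC), letter patterns known from phenylpropanoid genes, were in 6 member windows in all and in 7.16% of all windows. They were 4CL3 (element I, at 120 and 68 bases before the start), SCPL10, TT8 and AT4G14090 (element II), and MYB114 and LBD38 (element III). In SCPL10 element II shares its last base with the G-box. A match of letters is a description and no sign of binding.

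Levels below are TPM in replicates 1 and 2, in that order. The T0 libraries were the least alike of all 15 replicate pairs (Pearson's r of log2(TPM + 1) 0.888 across genes, which are not independent replicates), and 19.4% of the genes tested differed more than 2-fold between them. CHS stood at 409 and 7.29 TPM, F3H at 207 and 2.25, FLS1 at 109 and 3.61 and PAL1 at 316 and 49.8. The morning clock gene CCA1 stood at 318 and 0.13 TPM and the evening clock gene TOC1 at 2.25 and 84.3 TPM in the same libraries. Of the 33 members 12 were more than 2-fold higher in replicate 1 and 0 in replicate 2, and DFR and LDOX were near 0 in both.

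Replicates of the pathway genes were also far apart in 6 later groups, where a smaller share of all genes was. Of the 33 members, more than 2-fold gaps were seen in 18 at 6 h in mock (replicate 2 higher), 11 at 24 h in mock (replicate 2 higher) and 18 at 2 d in mock (replicate 1 higher). With NPA, replicate 1 was the higher one in 15 members at 6 h, 18 at 24 h and 14 at 2 d. In these 6 groups between 2.72% and 4.35% of all genes tested had such a gap. In the groups of 12 h, 3 d, 4 d and 5 d, mock and NPA alike, 0 to 3 members had one. DFR at 2 d in mock stood at 977 and 197 TPM and F3'H at 200.2 and 13.8 TPM, while the repressor gene MYBL2 stood the other way, at 24.5 and 43.5 TPM. Clock genes also differed within groups: LHY stood at 0.26 and 12.3 TPM at 6 h in mock, 17.3 and 0.43 at 6 h with NPA and 3.28 and 30.1 at 2 d in mock. It differed as well at 12 h in mock, at 235 and 51.3 TPM, where 0 members had a gap. The part of the time of day in the pathway levels, at T0 or later, was not tested. The spread within these groups enters the error of each comparison, since all groups share an estimate of it in the model.

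**Figure D1:**
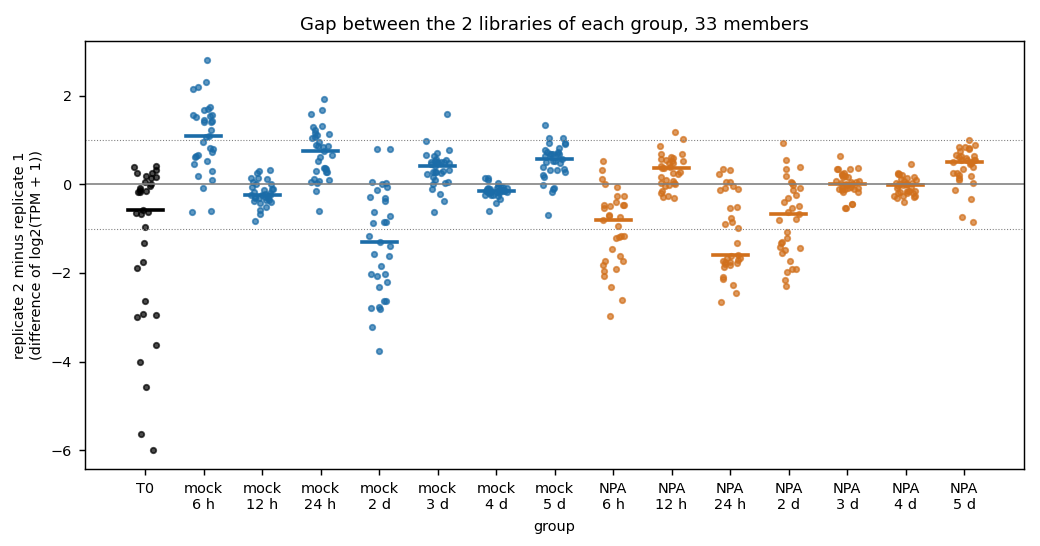
Difference of log2(TPM + 1) between replicate 2 and replicate 1 for the 33 tested members in each of the 15 groups; each point is a gene, the thick bar is the median over members and the dotted lines mark 2-fold. Medians reach -0.58 at T0, 1.08 at 6 h in mock, -1.3 at 2 d in mock and -1.60 at 24 h with NPA, and lie close to 0 at 3 d and 4 d with NPA.

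The mock comparison with T0 asked what changed beside the wound after detachment. Most of the pathway rose: 27 of the 33 tested members were higher at 12 h and 0 lower (adjusted p under 0.05, limma, Benjamini-Hochberg adjustment over 20654 genes), against 17.0% of all genes tested higher and 7.53% lower. At 6 h 18 members were higher and 3 lower (all genes 26.5% and 6.22%). At 24 h 14 were higher and 1 lower (32.5% and 8.98%), at 2 d 16 and 2 (33.4% and 8.94%), and at 3 d 13 and 2 (39.9% and 9.35%). At 4 d 20 were higher and 0 lower (39.8% and 8.74%), and at 5 d likewise 20 and 0 (42.4% and 10.9%). With TMM scaling the split was 15 higher and 2 lower at both times. With quantile normalization it was 17 and 2 at 4 d and 14 and 2 at 5 d. The share of all genes called under these scalings is not given here, so these splits have no background. In the values as deposited, the share of members called higher at 3 d was near that of all genes. The shares at 6 h, 12 h, 2 d, 4 d and 5 d were above it, and that at 24 h was somewhat above it. The median log2 fold change of the members was 2.99 at 12 h, 0.60 at 3 d and 1.74 at 4 d, and that of all genes was 0.07, 0.34 and 0.34.

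The members fell into those that were already on in a T0 library and those that were near 0 in both. For some of the former, among them PAL1, F3H and FLS1, the T0 levels spanned those of many later mock libraries. For others, such as MYBL2 and MYB111, both T0 libraries lay below every mock library. Fewer higher calls were kept at each time when either T0 library was left out. How many of all genes kept theirs was not counted, so the kept calls cannot be set against a background. DFR, LDOX, UGT79B1, AT4G14090, 5MAT, GSTF12, PAP1 and PAP2 kept their higher call at all 7 times with any library of the comparison left out. Fitted only to the 4 libraries of each comparison, limma called 2 members at 6 h, 9 at 12 h, 5 at 24 h, 0 at 2 d, 10 at 3 d, 12 at 4 d and 11 at 5 d. Of all genes those fits called 0.547%, 1.07%, 2.13%, 1.41%, 7.76%, 10.9% and 13.5%.

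**Figure D2:**
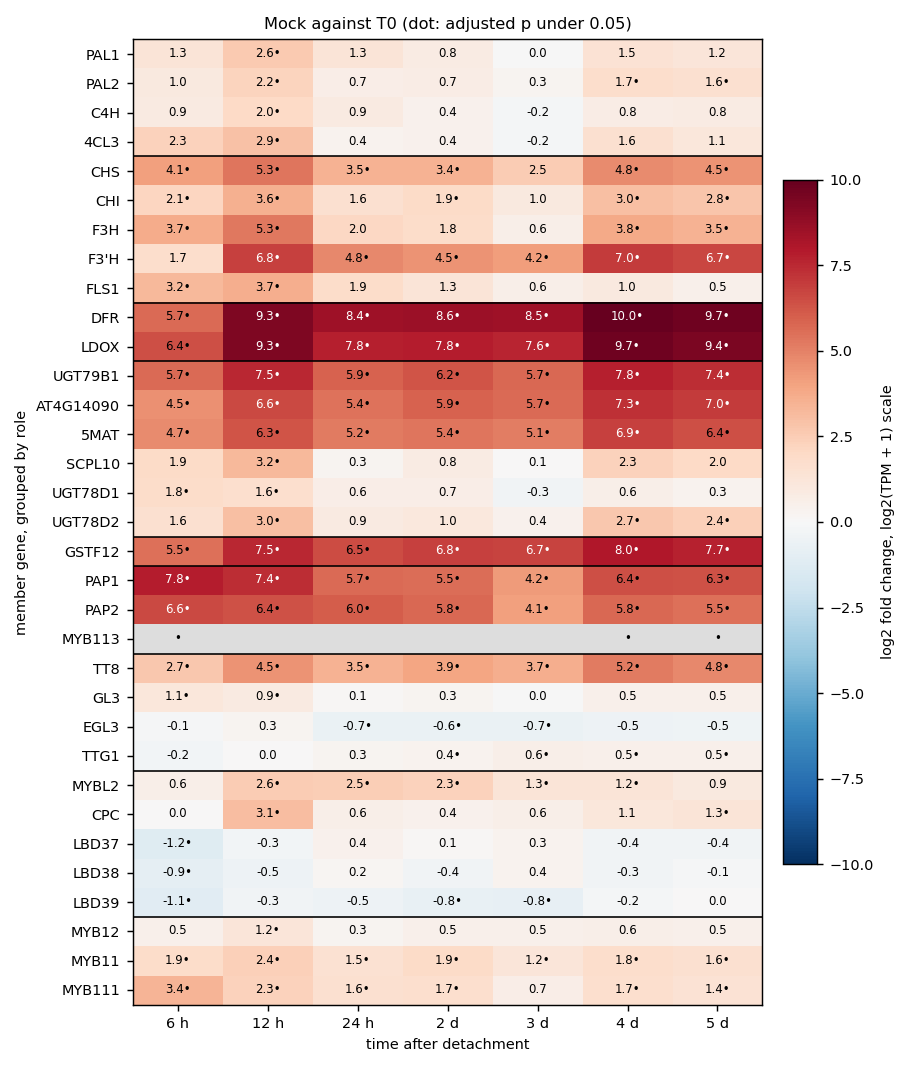
Log2 fold change of mock against T0 on the log2(TPM + 1) scale for the 33 tested members (rows, grouped by role) at 7 times (columns); a dot marks an adjusted p under 0.05, and MYB113, listed at 0 in both T0 libraries, is left without a fold in grey. DFR, LDOX, UGT79B1, AT4G14090, 5MAT, GSTF12, PAP1 and PAP2 are called at all 7 times, and the 4 entry enzymes are closest to 0 at 3 d.

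Transcripts of the entry enzymes were present before detachment, at levels that differed between the T0 libraries, and peaked at 12 h. PAL1 and PAL2, which strip the amino group from phenylalanine, had their highest mock levels at 12 h, as did C4H, which hydroxylates the product, and 4CL3, which activates it for flavonoid synthesis. PAL1 (AT2G37040) stood at 316 and 49.8 TPM at T0, 183 and 531 at 6 h, 856 and 695 at 12 h, 118 and 133 at 3 d and 362 and 337 at 4 d. Both 12 h libraries lay above every other mock library and above both T0 libraries. The entry genes were called higher at 12 h in 4 of 4 cases, with log2 fold changes of 2.60 ± 0.63 (SE) for PAL1, 2.23 ± 0.63 for PAL2, 2.03 ± 0.40 for C4H and 2.92 ± 0.92 for 4CL3. C4H (AT2G30490) alone kept that call without T0 replicate 2, when PAL1 had an adjusted p of 0.0788. At 4 d and 5 d PAL2 was the single entry gene called higher (log2 fold change 1.74 ± 0.63 with adjusted p = 0.0299 at 4 d), and without T0 replicate 2 its log2 fold change at 4 d was 0.26 (adjusted p = 0.668).

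All 5 early flavonoid enzymes were called higher at 12 h, with log2 fold changes from 3.59 for CHI to 6.8 for F3'H. CHS, which forms the chalcone skeleton, was the most abundant member: it stood at 409 and 7.29 TPM at T0, 606 and 1670.1 at 6 h, 2525 and 2244 at 12 h, 279 and 388 at 3 d and 1656 and 1501 at 4 d. Its 12 h libraries lay above all other mock libraries (log2 fold change 5.35 ± 1.14 with adjusted p = 0.00203). The 12 h and 4 d calls of CHS were kept without either T0 library; those at 6 h, 24 h, 2 d and 5 d were lost without replicate 2 (adjusted p from 0.0708 to 0.526). CHI, which closes the ring, stood at 86.7 and 10.6 TPM at T0 and 414 and 352 TPM at 12 h (log2 fold change 3.59 ± 0.73 with adjusted p = 0.00147). Its 12 h call was kept without either T0 library, and those at 6 h, 2 d, 4 d and 5 d were lost without replicate 2 (adjusted p from 0.0661 to 0.590). F3H, which makes dihydroflavonols, stood at 207 and 2.25 TPM at T0, 1139 and 864 TPM at 12 h and 29.98 and 47.5 TPM at 3 d. T0 replicate 1 of F3H was thus above both 3 d libraries and replicate 2 far below them. All 4 calls of F3H (6 h, 12 h, 4 d, 5 d) needed T0 replicate 2 (without it, log2 fold change 2.26 and adjusted p = 0.137 at 12 h). F3H overlaps an annotated gene on the other strand over 1588 of its 1681 bases, and reads of the pair cannot be told apart without strand information; that gene reached at most 19.8 TPM.

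F3'H, which adds a hydroxyl group to the B ring, was low at T0 in both libraries, where the other early enzymes were high in replicate 1. It stood at 2.03 and 1.03 TPM at T0 and 2.09 and 20.6 TPM at 6 h. It then stood at 319 and 237 TPM at 12 h, 36.5 and 52.6 TPM at 3 d and 337 and 309 TPM at 4 d. F3'H was called higher than T0 from 12 h on (log2 fold change 6.80 ± 1.19 with adjusted p = 0.000375) and was also called in the step from 6 h to 12 h (log2 fold change 5.08 ± 1.19 with adjusted p = 0.0146). Its calls at 24 h and 2 d were lost without the higher mock library of that time (adjusted p = 0.0522 and 0.129).

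FLS1, the main flavonol synthase of Arabidopsis, had its highest mock mean at 12 h and its lowest at 5 d. It stood at 109 and 3.61 TPM at T0, 129 and 349 at 6 h, 297 and 270.5 at 12 h, 51.6 and 128 at 24 h, 28.4 and 38.5 at 3 d, 43.3 and 42.4 at 4 d and 26.2 and 34.98 at 5 d. T0 replicate 1 lay above all mock libraries from 2 d on, and replicate 2 below all of them. FLS1 was called higher at 6 h (log2 fold change 3.25 ± 0.92 with adjusted p = 0.0119) and at 12 h (log2 fold change 3.66 ± 0.92 with adjusted p = 0.00678), and neither call held when T0 replicate 2 was left out (adjusted p = 0.217 and 0.0923). At 3 d and 5 d its direction depended on the T0 library used.

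UGT78D1, a flavonol rhamnosyltransferase, had a similar early course. It stood at 133 and 52.5 TPM at T0, 245 and 374 at 6 h, 264 and 265 at 12 h, 115 and 149 at 24 h and 60.4 and 74.3 at 3 d. The 6 h and 12 h libraries all lay above both T0 libraries (log2 fold change 1.84 ± 0.32 with adjusted p = 0.000333 at 6 h), and both calls were kept with any library left out.

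The late genes went from near 0 to among the higher levels in the pathway. DFR (AT5G42800), the first enzyme of the anthocyanin branch, stood at 0 and 0.31 TPM at T0, 25.1 and 129 at 6 h, 808 and 682 at 12 h, 317 and 503 at 24 h, 369.9 and 449 at 3 d, 1264 and 1130.1 at 4 d and 822 and 1169 at 5 d. LDOX (AT4G22880), which forms the anthocyanidin, stood at 0.13 and 0.24 TPM at T0, 47.1 and 219.6 at 6 h, 841 and 658 at 12 h, 191 and 269.5 at 3 d and 1047 and 960.5 at 4 d. Every mock library exceeded both T0 libraries for these genes, and the mean of mock was highest at 4 d, where replicate 2 of 5 d lay within or near the 4 d range (log2 fold change 10.03 ± 0.85 with adjusted p = 4.59e-08 for DFR). Because the T0 levels are close to 0, the log2(TPM + 1) scale understates these folds. BAN, the late enzyme of proanthocyanidin synthesis in the seed coat, was at most 0.21 TPM in any library.

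Of the 6 decorating enzymes, 3 were close to 0 at T0 and called higher at all 7 times, as DFR and LDOX were. UGT79B1 (AT5G54060), which adds xylose, stood at 0.03 and 0.17 TPM at T0, 32.2 and 97.2 TPM at 6 h, 213 and 196 TPM at 12 h and 249.8 and 232 TPM at 4 d. AT4G14090, annotated as the anthocyanidin 5-O-glucosyltransferase, stood at 3.32 and 1.73 TPM at T0, 371 and 314 TPM at 12 h and 557 and 502 TPM at 4 d. The malonyltransferase gene 5MAT stood at 0.03 and 0.23, 84.7 and 85.5 and 138 and 122 TPM at the same times. These 3 had their highest mock mean at 4 d, with every mock library above both T0 libraries. GSTF12, the glutathione transferase needed to bring anthocyanins into the vacuole, stood at 3.15 and 0.24 TPM at T0, 463 and 381 at 12 h and 602 and 539.5 at 4 d (log2 fold change 7.98 ± 0.77 with adjusted p = 2.4e-07). The end of GSTF12 overlaps the gene AT5G17230 on the other strand by 108 bases, which reached 404 TPM.

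The other decorating enzymes were already on at T0. UGT78D2, which glucosylates flavonols and anthocyanidins alike, stood at 121 and 14.3 TPM at T0, 382 and 307 at 12 h and 299 and 266 at 4 d. SCPL10, which attaches the sinapoyl group, stood at 105 and 5.58, 298 and 209.8 and 134 and 127 TPM. Both showed the T0 gap of the early genes, and neither was called at 12 h once T0 replicate 2 was left out (adjusted p = 0.274 and 0.307).

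The MYB activators PAP1 and PAP2 had their highest mock means at 6 h. PAP1 (AT1G56650), the main activator in seedlings, stood at 0.49 and 0.33 TPM at T0, 239 and 423 at 6 h, 247 and 215 at 12 h, 50.8 and 99.5 at 24 h, 14.2 and 44.8 at 3 d and 115 and 128 at 4 d. Its mean was highest at 6 h, when those of DFR and LDOX were at their lowest after detachment (log2 fold change 7.83 ± 0.61 with adjusted p = 5.28e-08). Its relative PAP2 stood at 0.06 and 0 TPM at T0, 78.2 and 122 at 6 h and 84.9 and 81.7 at 12 h. PAP2 then stood at 33.5 and 129 TPM at 24 h, 113 and 26.1 at 2 d and 11.5 and 23.6 at 3 d. The limma log2 fold change of PAP2 at 6 h was 6.58 ± 0.69 (adjusted p = 1.81e-06). The highest mock library of PAP2 was replicate 2 of 24 h, and its highest NPA mean was at 24 h. For PAP1 and PAP2 the 6 h and 12 h mock libraries overlapped. MYB113 and MYB114 were listed at 0 in both T0 libraries and did not exceed 1.67 and 1.19 TPM anywhere. PAP2, MYB113 and MYB114 lie side by side on chromosome 1 between 24753589 and 24765541, and reads could be split among such similar copies. MYB113 was called higher than T0 at 6 h, 4 d and 5 d, where it stood at 1.39 and 0.57, 0.77 and 0.41 and 0.93 and 1.15 TPM. The 5 d call alone was kept with any library left out.

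Among the bHLH partners TT8 was called higher at all 7 times, but at 6 h not without mock replicate 2 (adjusted p = 0.0878). TT8 stood at 0.21 and 0.11 TPM at T0, 3.44 and 11.8 at 6 h, 29.6 and 22.5 at 12 h, 12.1 and 15.5 at 3 d and 44.9 and 37.4 at 4 d (log2 fold change 5.18 ± 0.69 with adjusted p = 9.92e-06). GL3 stood at 0.04 and 0.08 TPM at T0, 0.96 and 1.71 at 6 h and 0.07 and 0 at 3 d, and was called higher at 6 h (log2 fold change 1.12 ± 0.24 with adjusted p = 0.00209) and 12 h. The 12 h call was lost without mock replicate 1 at 12 h (adjusted p = 0.108). EGL3, its near relative, stood at 1.53 and 2.35 TPM at T0, 2.37 and 2.73 at 12 h and 0.69 and 1.04 at 24 h. EGL3 was called lower than T0 at 24 h, 2 d and 3 d (log2 fold change -0.66 ± 0.23 with adjusted p = 0.0276 at 3 d), and each of these calls was lost without T0 replicate 2 (adjusted p from 0.176 to 0.199). Under TMM scaling it was called lower at 4 d and 5 d too (log2 fold change -0.66 and -0.65). TTG1, the WD40 partner, ranged only from 20.84 to 45.52 TPM over all 30 libraries. It was called higher than T0 from 2 d to 5 d (log2 fold change 0.58 ± 0.13 with adjusted p = 0.00181 at 3 d), but under TMM scaling it was not called at these times (log2 fold change 0.27, adjusted p = 0.124 at 3 d) and was called lower at 6 h (-0.48, adjusted p = 0.0143).

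The 5 repressors differed in their time courses. MYBL2, an R3 MYB that blocks the activating complex, stood at 5.71 and 5.59 TPM at T0, 6.77 and 11.8 at 6 h, 51.3 and 28.5 at 12 h, 44.4 and 29.1 at 24 h and 17.2 and 12.7 at 4 d. It was called higher from 12 h to 4 d (log2 fold change 2.56 ± 0.42 with adjusted p = 0.000196 at 12 h). The 3 d and 4 d calls were lost under TMM scaling and without T0 replicate 1 (adjusted p = 0.0641 at either time). CPC (AT2G46410), an R3 MYB best known from epidermal patterning, was called higher than T0 at 12 h and 5 d. Leaving out T0 replicate 1, T0 replicate 2 or mock replicate 2 ended the 5 d call (adjusted p = 0.0788, 0.0945 and 0.38), as did TMM scaling. CPC stood at 0.93 and 0.75 TPM at T0, 0.89 and 0.8 at 6 h, 18.6 and 11.4 at 12 h, 1.3 and 2.3 at 24 h, 1.56 and 2.07 at 3 d and 1.85 and 6.2 at 5 d. Both 12 h libraries lay above all other mock libraries. The CPC rise from 6 h to 12 h (log2 fold change 3.08 ± 0.49 with adjusted p = 0.00165) was kept with any library left out. The fall to 24 h (log2 fold change -2.50 ± 0.49 with adjusted p = 0.00668) was not. With NPA, CPC stood at 0.73 and 0.74 TPM at 6 h, 10.7 and 20.3 at 12 h and 4.61 and 0.76 at 24 h, so the 12 h libraries were the highest there too.

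LBD37, LBD38 and LBD39, which are induced by nitrate and repress anthocyanin genes, were the 3 members called lower at 6 h. LBD37 stood at 80.3 and 71.04 TPM at T0, 30.1 and 34.7 at 6 h and 99.7 and 103 at 24 h (log2 fold change -1.20 ± 0.27 with adjusted p = 0.00259 at 6 h). LBD38 stood at 28.4 and 33.95, 20.4 and 12.8 and 34.98 and 38.3 TPM at these times, and LBD39 at 35.6 and 45, 14.5 and 21.4 and 29.3 and 26.4 TPM. For each, both 6 h libraries lay below both T0 libraries. The lower calls of LBD37 and LBD39 were kept with any library left out; that of LBD38 was lost without mock replicate 2 at 6 h (adjusted p = 0.125). LBD39 was also lower at 2 d and 3 d (log2 fold change -0.81 ± 0.23 with adjusted p = 0.0082 at 3 d), and both calls were lost without T0 replicate 2.

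The flavonol MYBs were low except for MYB111. MYB111 (AT5G49330) stood at 3.8 and 2.14 TPM at T0, 31.96 and 51.6 at 6 h, 16.5 and 20.7 at 12 h, 6.26 and 17.2 at 24 h, 3.9 and 7.06 at 3 d and 12.3 and 10.9 at 4 d. Its 6 h libraries were the highest of mock (log2 fold change 3.42 ± 0.44 with adjusted p = 1.66e-05). MYB11 stood at 0.56 and 0 TPM at T0 and 6.35 and 5.01 TPM at 12 h, and MYB12 at 1.19 and 0.12 and 2.63 and 2.79 TPM. All 3 were called higher at 12 h, with log2 fold changes of 2.33 ± 0.44 for MYB111, 2.41 ± 0.41 for MYB11 and 1.24 ± 0.31 for MYB12. The call of MYB12 was lost without T0 replicate 2 (adjusted p = 0.0801).

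**Figure D3:**
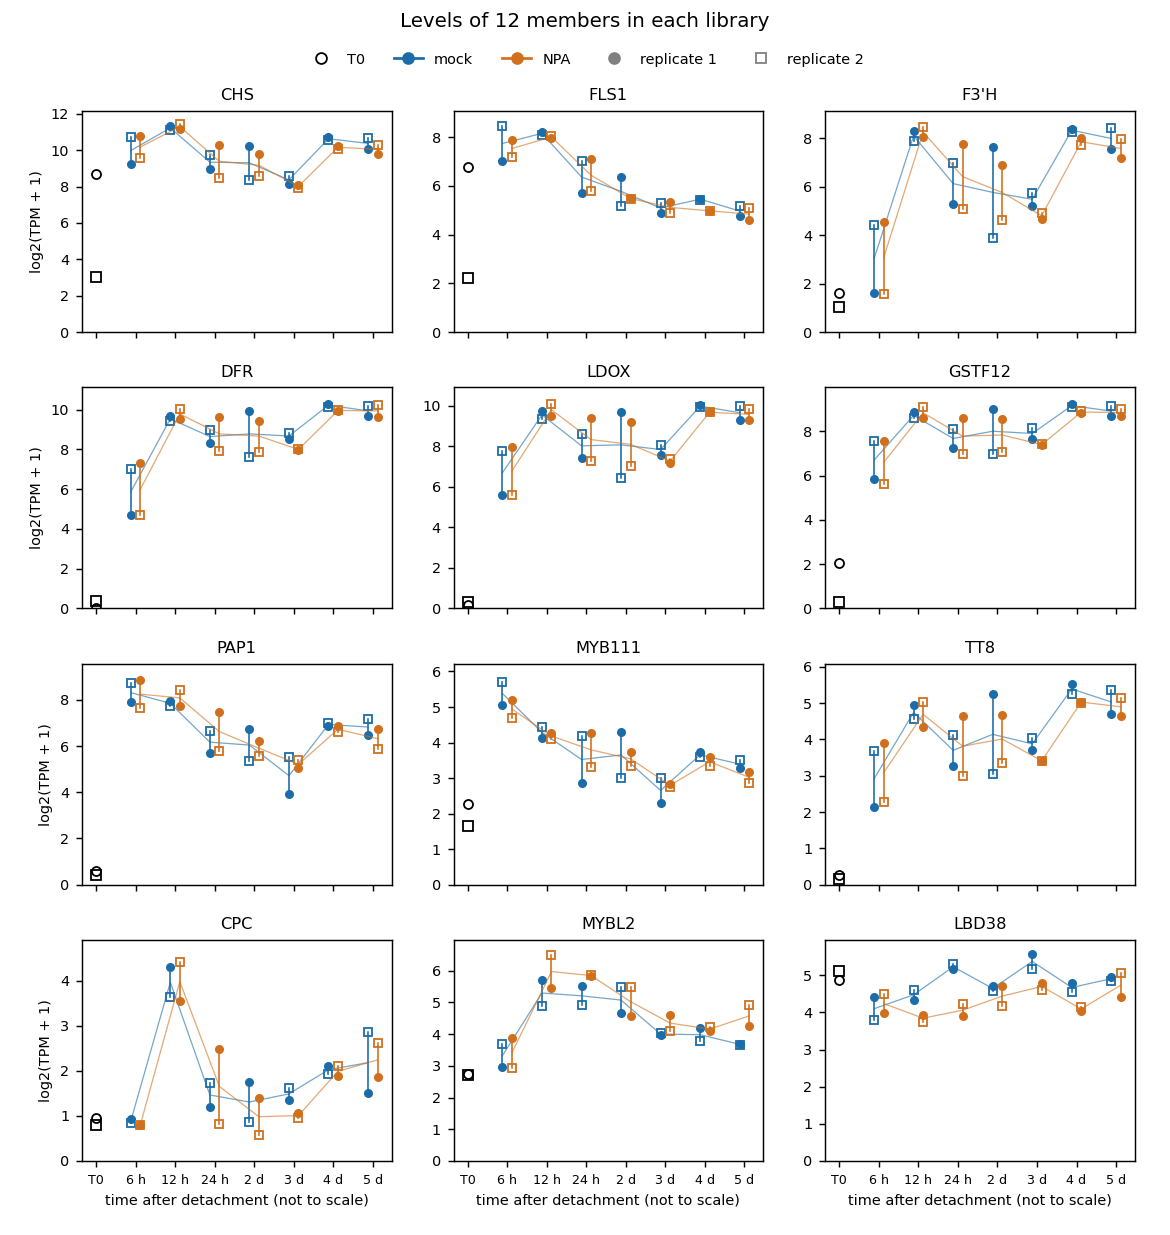
Log2(TPM + 1) of 12 members in every library by time after detachment (categories, not to scale); open black symbols are T0, blue is mock and orange NPA, circles are replicate 1 and squares replicate 2, and thin lines join group means. The means of PAP1 and MYB111 are highest at 6 h in mock, and FLS1 is lower after 12 h. DFR, LDOX, GSTF12 and TT8 are high at 12 h and again at 4 d, and CPC is high at 12 h. Mock and NPA overlap at most times in most panels. At 4 d both NPA libraries of CHS, FLS1, F3'H, DFR, LDOX, GSTF12, TT8 and LBD38 lie below both mock libraries. How many of all genes do so was not counted, so this has no background.

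In the step from 6 h to 12 h in mock, 6 members were called higher and 0 lower (all genes 2.01% and 6.91%): F3'H, DFR, MYBL2, CPC, LBD37 and LBD39. Among them CPC alone kept its call with each of the 4 libraries left out, and the count fell to 1 without mock replicate 1 at 6 h or at 12 h and to 3 without mock replicate 2 at 12 h. From 12 h to 24 h LBD38 was called higher and SCPL10, UGT78D1, EGL3, CPC and MYB12 lower (all genes 10.6% and 4.13%). Of these 6 calls none was kept with each of the 4 libraries left out: the count was 0 without mock replicate 1 at 12 h and 1 without each of the other three.

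Later steps gave 0 called members by limma, although the enzyme means were lower at 3 d than at 12 h and 4 d. Of all genes it called 0.412% from 24 h to 2 d, 1.39% from 2 d to 3 d, 1.98% from 3 d to 4 d and 0.993% from 4 d to 5 d. At an unadjusted p under 0.05 there were 1, 6, 19 and 0 of the 33 members in these steps, and 5.83%, 10.9%, 16.1% and 4.85% of all genes. For all 18 tested enzyme and carrier genes, both 4 d libraries of mock lay above both 3 d libraries, as they did for 35.9% of all genes tested. Both 12 h libraries also lay above both 3 d libraries in all 18, against 19.8% of all genes. With NPA the 4 d libraries were above the 3 d libraries in 17 of the 18, FLS1 being the exception (29.2% of all genes). The ratio of the 4 d to the 3 d mean in mock ran from 1.28 for FLS1 to 9.01 for F3H, and was 2.92 for DFR and 4.73 for CHS. The member nearest to a call was PAP1 (adjusted p = 0.0729). Fitted to these 4 libraries alone, without the spread of the other groups, limma called 20 members in this step and 17% of all genes.

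Among the 7 mock times, without T0, a moderated F test called 16 of 33 members as varying (48.4% of all genes), a share no higher than the background. The enzyme genes split by when their mock mean was highest. The 10 that peaked at 12 h were PAL1, PAL2, C4H, 4CL3, CHS, CHI, F3H, FLS1, SCPL10 and UGT78D2. The 7 that peaked at 4 d were F3'H, DFR, LDOX, UGT79B1, AT4G14090, 5MAT and GSTF12, and UGT78D1 peaked at 6 h. With NPA 13 of the 18 peaked at 12 h, 3 at 4 d, 1 at 5 d and 1 at 6 h, so the order of the 12 h and 4 d maxima was not the same in both series. A comparison of mock at 4 d with mock at 12 h, added after these levels had been seen, called 6 members lower and 1 higher (all genes 5.32% and 25.4%). FLS1 was among the lower (log2 fold change -2.70 ± 0.92 with adjusted p = 0.0338), with C4H, UGT78D1, EGL3, MYBL2 and CPC, while TTG1 was higher. With TMM 0 were higher and 6 lower, and with quantile normalization 0 and 8. None of the 7 kept its call with each of the 4 libraries left out.

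FLS1 and DFR, whose enzymes share substrates, were also compared within each library by the ratio of their transcript levels. No enzyme or metabolite was measured. The ratio was chosen after the levels had been seen and is given as a description. In mock the ratio of FLS1 to DFR in TPM was 5.15 and 2.7 at 6 h, 0.368 and 0.397 at 12 h, 0.163 and 0.254 at 24 h, and 0.0828 and 0.181 at 2 d. It was 0.0768 and 0.0858 at 3 d, 0.0343 and 0.0375 at 4 d, and 0.0319 and 0.0299 at 5 d. FLS1 exceeded DFR in all 4 libraries of 6 h and in no library of 12 h or later. With NPA the ratio was 1.51 and 5.84 at 6 h, 0.340 and 0.248 at 12 h, and 0.0296 and 0.0269 at 5 d. In both series the 2 d ratios stood below all 12 h ratios. PAP1 exceeded DFR in the same way at 6 h in mock (ratio 9.55 and 3.28) and stood below it at 12 h (0.306 and 0.315).

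**Figure D4:**
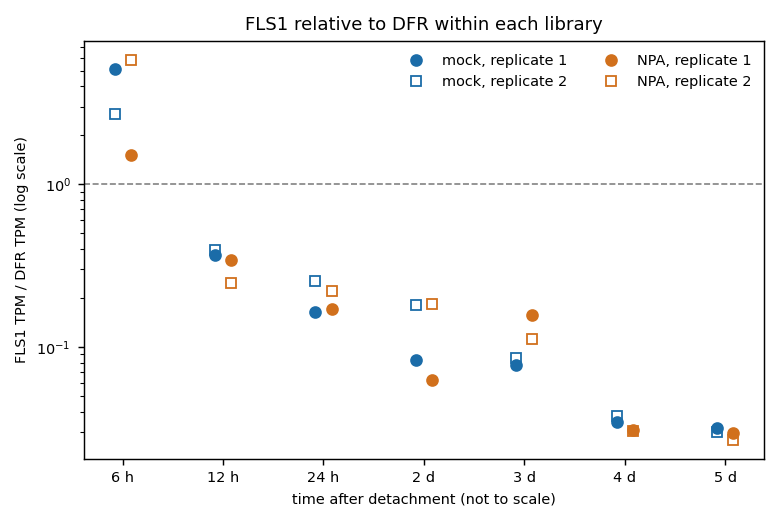
Ratio of FLS1 to DFR in TPM within each library (log axis) by time after detachment; blue is mock and orange NPA, filled circles are replicate 1 and open squares replicate 2, and the dashed line marks equal levels. The 4 libraries of 6 h lie above 1, those of 12 h between 0.248 and 0.397, and those of 5 d between 0.0269 and 0.0319.

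NPA against mock at the same time asked what blocking polar auxin transport does to the pathway. Few members differed: limma called 1 of 33 at 24 h and 0 at each of the other 6 times. Of all genes it called 1.56% at 6 h, 2.09% at 12 h, 1.89% at 24 h, 3.69% at 2 d, 5.74% at 3 d, 9.91% at 4 d and 17.1% at 5 d. At an unadjusted p under 0.05 the members numbered 2 at 6 h, 2 at 12 h, 2 at 24 h, 0 at 2 d, 1 at 3 d, 2 at 4 d and 3 at 5 d. The shares of all genes at that threshold were 6.62%, 13.3%, 11.6%, 12.6%, 16.6%, 20.9% and 29.4%. A p that misses the threshold does not show equal levels: the median SE of the members was 0.63 on the log2 scale in each of these comparisons. DFR stood at 822 and 1169 TPM in mock and 788 and 1218 TPM with NPA at 5 d, and CHS at 1080.3 and 1616 and 870.5 and 1267 TPM. PAP1 stood at 87.3 and 145 and 107 and 58.5 TPM at 5 d. At 5 d the replicates of mock and NPA overlapped in DFR and CHS. At 4 d both NPA libraries of each lay below both mock libraries, as at 3 d. How many of all genes did so was not counted. At 4 d CHS stood at 1656 and 1501 TPM in mock and 1217 and 1069 TPM with NPA. DFR stood at 1264 and 1130 TPM in mock and 980 and 1010 TPM with NPA. At 4 d 29 members had a lower estimate with NPA and 4 a higher one (median log2 fold change -0.29, all genes -0.12). At 24 h 27 estimates were higher and 5 lower (median log2 fold change 0.11, all genes -0.08). How the estimates of all genes split by direction was not counted, so these splits have no background.

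LBD38 (AT3G49940) was the gene called at 24 h. It stood at 34.98 and 38.3 TPM in mock and 13.96 and 17.6 TPM with NPA, both NPA libraries below both mock libraries, where 1.47% of all genes were called lower (log2 fold change -1.17 ± 0.24 with adjusted p = 0.014). The call was lost without mock replicate 1 (adjusted p = 0.0617), without mock replicate 2 (0.163) and without NPA replicate 1 (0.169). It was also lost with a replicate block (0.103) and in the fit to these groups alone (0.219). At 12 h it stood at 19.3 and 23.4 TPM in mock and 14.4 and 12.5 TPM with NPA, at 4 d at 26.8 and 22.5 and 15.5 and 16.7 TPM, and at 5 d at 30.2 and 28.03 and 20.5 and 32.2 TPM. At 6 h, 2 d and 5 d the groups overlapped.

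Averaged over the 7 times, 2 members were called lower with NPA and 0 higher (all genes 30.6% and 6.60%). That split depended on the scaling: 2 members were higher and 2 lower with TMM, and 2 higher and 1 lower with quantile normalization. Of all genes called, 1364 of 7675 were higher as deposited, 45.8% with TMM and 48.3% with quantile normalization. LBD38 was lower by this mean (log2 fold change -0.47 ± 0.09 with adjusted p = 0.000574), and so was EGL3 (log2 fold change -0.32 ± 0.09 with adjusted p = 0.00781). Both calls were kept with each library left out, but that of EGL3 was lost under quantile normalization (log2 fold change -0.15, adjusted p = 0.159). EGL3 stood at 1.16 and 1.03 TPM in mock and 0.35 and 0.6 TPM with NPA at 4 d, and reached at most 2.73 TPM in any library. The members called higher under both scalings, and not in the values as deposited, were MYBL2 (0.50, adjusted p = 0.0288 with TMM) and GL3 (0.27, adjusted p = 0.0286 with TMM). Whether the NPA difference varied between times was called for 0 members by the moderated F test (5.86% of all genes; 2 members and 11.3% of all genes at an unadjusted p under 0.05).

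**Figure D5:**
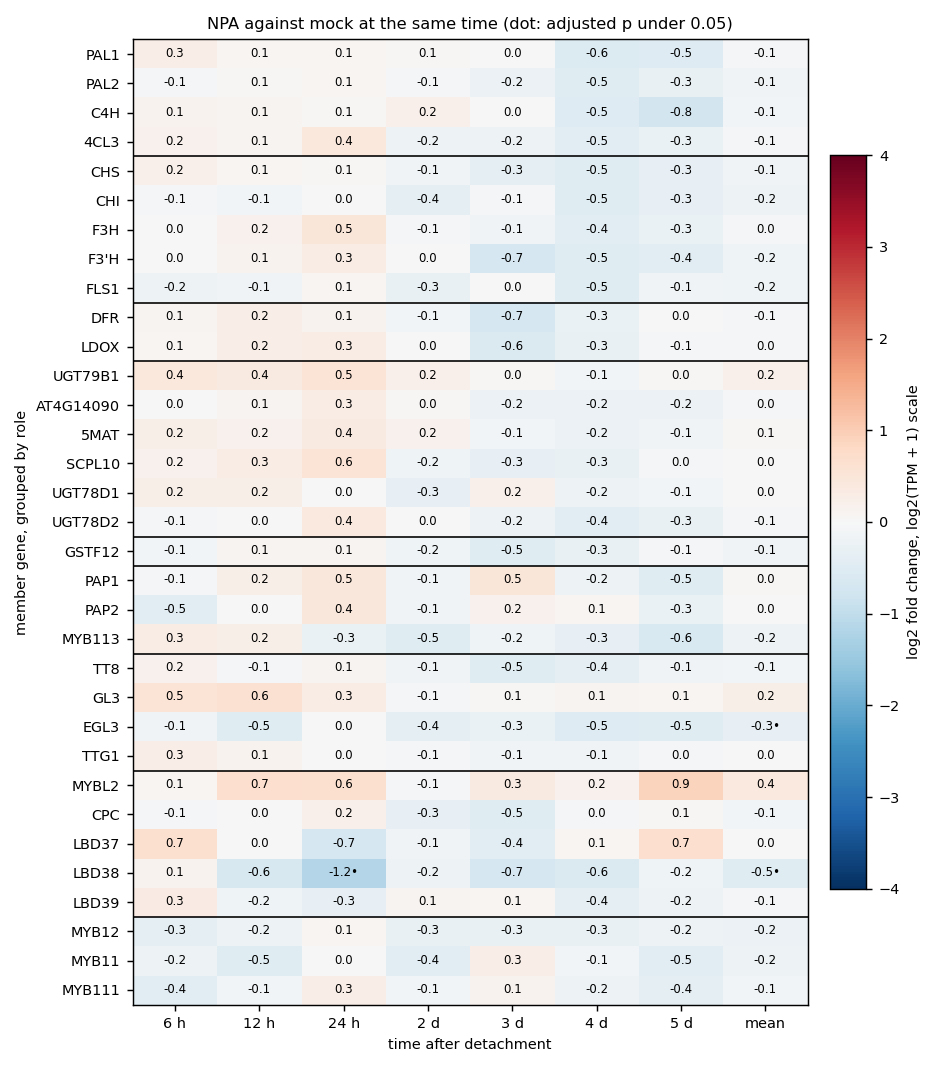
Log2 fold change of NPA against mock at the same time on the log2(TPM + 1) scale for the 33 tested members (rows, grouped by role) at 7 times and as the mean over times (columns); a dot marks an adjusted p under 0.05. LBD38 at 24 h (-1.17) and the means of LBD38 (-0.47) and EGL3 (-0.32) are marked, and all other cells are not.

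Other genes of the pathway were counted in lists drawn up by known role. For comparison, 17.0% of all genes tested were higher than T0 at 12 h while 7.53% were lower, and by 5 d these shares were 42.4% and 10.9%. Of 11 tested further flavonoid enzymes, 8 were higher and 0 lower than T0 at 12 h and likewise at 5 d. AT1G03940 stood at 4.61 and 3.26 TPM at T0, 123 and 117 at 12 h and 87.8 and 168 at 5 d (log2 fold change 4.63 ± 0.90 with adjusted p = 0.000997 at 12 h), and AT1G03495 at 6.89 and 3.77, 125 and 109 and 80.8 and 147 TPM. CHIL, a chalcone isomerase-like protein that assists CHS, stood at 252 and 9.14, 756 and 645 and 331 and 572 TPM and shared the T0 gap of the early genes. Of the 5 other entry genes 0 were higher and 1 lower at 12 h, PAL4, which stood at 26.6 and 7.57 TPM at T0 and 6.02 and 6.52 TPM at 12 h (log2 fold change -1.08 ± 0.36 with adjusted p = 0.0338).

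FLS2 and FLS3, relatives of FLS1, were the further flavonoid enzymes called between NPA and mock at matched times, at 4 d and at 5 d. FLS2 stood at 2.7 and 0.95 TPM at T0, 18.5 and 19.4 TPM at 5 d in mock and 9.43 and 8.08 TPM with NPA (log2 fold change -1.03 ± 0.27 with adjusted p = 0.0135). FLS3 stood at 0.33 and 0.82, 5.31 and 6.28 and 0.61 and 1.02 TPM in the same groups (log2 fold change -1.91 ± 0.20 with adjusted p = 1.7e-06). Both were also lower with NPA at 4 d. These neighbouring genes are similar in sequence, so reads could be split between them. FLS1 itself stood at 26.2 and 34.98 TPM in mock and 23.3 and 32.8 TPM with NPA at 5 d.

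Of 13 further regulators 4 were higher and 3 lower at 12 h. ETC3, an R3 MYB related to CPC, stood at 20.6 and 8.31 TPM at T0 and 88.3 and 74.6 TPM at 12 h (log2 fold change 2.54 ± 0.59 with adjusted p = 0.00411). AT1G23390 stood at 68.8 and 91.6 TPM at T0, 15.4 and 9.52 at 12 h and 23.8 and 14.2 at 5 d (log2 fold change -2.62 ± 0.51 with adjusted p = 0.000943 at 12 h), and KFB20, an F-box protein that directs the breakdown of PAL enzymes, stood at 21.8 and 27.6, 2.53 and 1.76 and 24.3 and 4.81 TPM (log2 fold change -3.03 ± 0.64 with adjusted p = 0.00184). KFB01, an F-box protein with the same known targets, went the other way: it stood at 0.96 and 1.9 TPM at T0, 5.88 and 7.17 at 12 h and 25.8 and 17.7 at 5 d, and was called higher at all 7 times (log2 fold change 1.65 ± 0.33 with adjusted p = 0.0013 at 12 h). AT1G23390 and KFB20 were already lower at 6 h, at 15.2 and 7.81 and at 1.85 and 0.76 TPM. At 5 d both were higher with NPA than in mock (log2 fold change 2.24 ± 0.64 with adjusted p = 0.0207 for KFB20).

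Of the 8 genes of the monolignol branch, which draws on the same entry products for lignin, 3 were higher and 0 lower at 12 h, CAD5, F5H and COMT1. CAD5 stood at 44.1 and 23.1 TPM at T0 and 146 and 149 TPM at 12 h (log2 fold change 2.17 ± 0.26 with adjusted p = 9.79e-06). Of 7 genes of the seed coat programme 3 passed the filter. TTG2, a WRKY gene that also acts in trichomes, stood at 0.67 and 1.16 TPM at T0, 32.7 and 28.9 at 12 h and 33.8 and 29.6 at 4 d (log2 fold change 4.06 ± 0.71 with adjusted p = 0.00039 at 12 h). The summed level of the seed coat list was 1.05 and 1.67 TPM at T0 and up to 39.95 TPM in mock, most of it TTG2.

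The genes most like DFR and LDOX were sought by Pearson's r over the 15 group means of log2(TPM + 1), among 13530 genes with a group mean of at least 10 TPM. Among the members r was 0.996 for AT4G14090, 0.995 for GSTF12, 0.985 for 5MAT, 0.983 for TT8 and 0.97 for UGT79B1. It was 0.8 for CHS, 0.704 for PAP1, 0.148 for FLS1 and -0.203 for LBD38. The 10 other genes with the highest r were AT4G07815 (0.98), PPDK (0.976), AKR4C8 (0.974), ACHT1 (0.971), TTG2 (0.969), SIP1;2 (0.966), RNS2 (0.965), BETA-VPE (0.964), GSTF6 (0.957) and AT5G44390 (0.956). GSTF6, a glutathione transferase gene, had a mean of 8.11 TPM at T0, 2602 TPM at 12 h in mock, 1156 TPM at 3 d and 2514 TPM at 4 d. The 15 means share libraries and the near-0 T0 level, and r is a description.

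Each list of leaf tissue markers held at least 1 gene detected in every library. The summed level of 5 mesophyll genes was 51380 to 56670 TPM at T0, 26790 to 57800 TPM in mock and 30850 to 62210 TPM with NPA. That of 5 epidermis genes was 404.4 to 406 TPM at T0, 318.3 to 477.5 TPM in mock and 311.9 to 469.8 TPM with NPA. Within the epidermis list 1 gene, CER6, was called higher at 12 h while 2 were lower, and at 5 d 1 was higher and 4 lower. ATML1, which specifies the epidermis, stood at 31.5 and 32.7 TPM at T0 and 8.88 and 9.72 TPM at 5 d in mock. The sum ran in mock from 26.94 to 68.04 TPM for 3 guard cell genes and from 0.95 to 3.34 TPM for 2 trichome genes, of which GL1 was at 0 in every mock library. It ran from 124.8 to 240.8 TPM in mock and 120.9 to 212.1 TPM with NPA for 5 vasculature genes, of which 3 were called lower with NPA than in mock at each time from 2 d to 5 d. XCP1, a xylem protease gene, stood at 30.01 and 38.9 TPM in mock and 1.19 and 3.77 TPM with NPA at 5 d. The root meristem list of 4 genes summed to 1.14 to 1.34 TPM at T0, 5.99 to 37.1 TPM in mock and 1.93 to 4.23 TPM with NPA. The part of cell composition in the pathway levels was not tested, and in such bulk samples fewer cells of a type and less RNA per cell cannot be told apart.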

How the data were processed

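RNA was sequenced from the wounded region of detached leaf blades in 30 libraries of 15 groups, each of 2 libraries. The authors deposited TPM values per gene in 2 tables; Trim Galore 0.5.0, STAR 2.7.2b, RSEM 1.3.2 and the build TAIR10 are named in the submitters' processing notes. Every column has the same total, so sequencing depth is unknown and no counting interval is given. Whether counting used strand is not given in the sources used here, and 7 members overlap a gene on the other strand. The T0 columns are identical in both tables and were used once.

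Genes with at least 1 TPM in at least 2 libraries (20654 of 37686) were tested on log2(TPM + 1) with limma 3.58.1 in R 4.3.3: a mean for each of the 15 groups, empirical Bayes moderation with a trend, 15 residual degrees of freedom, and Benjamini-Hochberg adjustment within each comparison over all genes tested. The threshold for a call was an adjusted p below 0.05. Errors beside log2 fold changes are standard errors. The script was tested on simulated data. All comparisons with T0 share its 2 libraries, so they are not independent of each other.

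All 35 members were named by their role. From the further lists the rule took at most 3 genes each, those with the largest absolute log2 fold change at 12 h and at 5 d among the called, and 10 genes of like pattern; FLS2, FLS3 and genes at other comparisons were added after their values had been seen. The members and lists were chosen with earlier results of these data known. The alternatives tried were a pseudocount of 0.1 or 5, no low-value filter, a mean of at least 5 TPM, TMM and quantile scaling, no trend, fits to the compared groups alone, a replicate block, and each library left out in turn. Coordinates and sequences are from the RefSeq annotation of TAIR10.1, which was not compared with the authors' build.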

Additional observations from a re-analysis of the deposited data

How the results depend on the processing

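Across alternatives other than leaving out a library, 6412 of 6666 results for single members stayed on their side of the threshold. Those called in both fits kept their direction, while the direction of results called in neither fit was not compared. Of the others 172 lost a call, 82 gained one and 0 reversed, which means called in either fit with opposite directions. With a library left out the same numbers were 3460 of 3696, 159, 74 and 3. The 3 that reversed did so without T0 replicate 2: PAL2 at 3 d against T0 (log2 fold change -1.18, adjusted p = 0.0412), and FLS1 at 3 d (-1.69, 0.0257) and 5 d (-1.81, 0.017). Without T0 replicate 1 instead, these were 1.78, 2.89 and 2.76. In fits to the compared groups alone the spread of the other groups has no part. Against T0 they called 2 members at 6 h, 9 at 12 h and 5 at 24 h. At 2 d, 4 d and 5 d they called 0, 12 and 11. From 6 h to 12 h and from 12 h to 24 h they called 0, and from 3 d to 4 d 20. For NPA they called 0 at 24 h, 1 at 3 d and 3 at 4 d. The shares of all genes against T0 and from 3 d to 4 d are given above. Those for the other comparisons were not counted, so their member counts have no background. With TMM scaling NPA gave 1 call at 5 d (LBD37) and 4 in the mean over times, and a mean of at least 5 TPM left 1 in that mean. Without a filter 2 members were called from 12 h to 24 h, and with quantile normalization 1 (PAP1) from 3 d to 4 d. How many of all genes were called without a filter or with a mean of at least 5 TPM was not counted.

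Leaving out each library in turn, the members called against T0 ran from 14 to 28 at 6 h, 19 to 27 at 12 h, 10 to 22 at 24 h, 12 to 25 at 2 d, 12 to 20 at 3 d, 14 to 24 at 4 d and 14 to 26 at 5 d. They ran from 1 to 7 from 6 h to 12 h, 0 to 1 from 12 h to 24 h, 12 to 25 among the mock times, 2 to 5 in the mean NPA difference, and 0 to 1 in its variation between times. For NPA they ran from 0 to 1 at 24 h and 0 to 2 at 5 d (2 without mock replicate 1 and 1 without NPA replicate 1), and stayed at 0 for the other single times of NPA and the other steps. The mean NPA count was 5 without mock replicate 2 at 6 h, the variation count was 1 without NPA replicate 1 at 5 d, and the count among mock times was 25 without mock replicate 1 at 2 d. A group left with 1 library was assumed to vary like the others. The share of all genes called in these fits is not given here, so the member counts have no background.

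The median of all genes against T0 lay at 0.07 to 0.37 on the log2 scale as deposited. It lay at 0.02 to 0.08 with TMM and -0.07 to -0.03 with quantile normalization. The share of all genes called under these 2 scalings is not given here, so member counts under them have no background. Of all genes called at 6 h, 5479 of 6764 were higher as deposited, and 59.4% were higher with TMM and 50.3% with quantile normalization; the members split 16 higher and 4 lower with either. Of those called at 4 d 61.3% and 45.3% were higher with TMM and quantile normalization, and at 5 d 59.3% and 45.1%, against 8226 of 10032 and 8762 of 11006 as deposited. Same-numbered mock and NPA libraries deviated together with r from -0.58 to 0.33, so the numbers do not pair them, and a replicate block gave 0 calls for NPA at 24 h. A crossed block was chosen after seeing the data. It gave 1 call at 6 h, 1 at 12 h, 2 at 24 h, 1 at 3 d, 1 at 4 d and 3 at 5 d. In the mean it gave 5 and in the variation 1. How many of all genes were called with either block was not counted, so these member counts have no background. Depth is unknown, which limits members near 1 TPM.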
